A study of Mus musculus with 6 samples.

Results

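The desmosomal cadherins are the adhesion proteins that span the membrane at desmosomes, the junctions that rivet neighbouring epithelial cells together. Their genes were taken as the rows whose symbol is Dsg1a, Dsg1b, Dsg1c, Dsg2, Dsg3, Dsg4, Dsc1, Dsc2 or Dsc3. All 9 were found, of 46517 genes measured. Of the 9, 8 passed the filter on low counts and were among the 19640 genes tested. The exception was Dsg4.

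A desmosome joins 2 cells through desmogleins (Dsg) and desmocollins (Dsc), whose outer domains bind each other across the gap. Inside the cell their tails bind plakoglobin and plakophilins, and these are tied by desmoplakin to the keratin filaments. In stratified epithelium the cadherins are layered: Dsg2 and Dsg3 with Dsc2 and Dsc3 are typical of basal cells, Dsg1 and Dsc1 of cells that have left the basal layer, and Dsg4 of the most mature epidermal cells and the hair shaft. Mice lacking Dsg3 lose their resting hairs, and DSG1 is the antigen in the human blistering disease pemphigus foliaceus.

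RNA was sequenced from sorted mouse hair germ stem cells, the small group of progenitors at the base of the resting follicle that starts new hair growth. LEF1_TCF7dKO animals carried Lef1fl/fl and Tcf7-/- together with the Cre driver Sox9-CreER and the reporter R26-lox-stop-lox-YFP. LEF1cKO animals carried the same alleles without Tcf7-/-, and WT animals carried only the driver and the reporter. Every library came from back skin at P60 (60 days of age, sexes mixed), 3 days after hair depilation, which activates the germ. Cells were sorted with YFP, integrin b1, CD34, Sca-1 and Pcadherin. Lef1 was deleted through a Cre driven by Sox9, so only in cells that had used that driver, whereas Tcf7 was lost in the whole animal. Each group had 2 libraries, and the sources used here do not say whether they came from separate animals, so p-values measure only the spread between these libraries.

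Depth ran from 40480694 to 63220022 expected counts per library. Levels are given in TPM, transcript abundance scaled to a fixed total per library and corrected for transcript length, so genes can be set against each other. Lef1 had 9.22 and 9.42 TPM in the LEF1_TCF7dKO libraries, 13.5 and 8.37 TPM in the LEF1cKO libraries, and 21.4 and 20.4 TPM in the WT libraries. Tcf7 had 13.7 and 18.0 TPM in LEF1_TCF7dKO, 29.3 and 27.8 TPM in LEF1cKO, and 26.9 and 36.0 TPM in WT. Transcripts of both genes were therefore lower but still counted in the double mutant, and the fall of Lef1 in LEF1cKO did not pass the test (log2 fold change -0.92, adjusted p = 0.282). Krt5 and Krt14, the basal keratins, were among the abundant transcripts of every library, at 4862 to 8258 TPM and 2757 to 8368 TPM.

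The 9 genes form a single cluster on mouse chromosome 18, chr18:19960930-20604521 in the GRCm38 build with GENCODE M21 annotation, a span of 644 kb. From the low-coordinate end the order is Dsc3, Dsc2 and Dsc1 on the minus strand, then Dsg1c, Dsg1a, Dsg1b, Dsg4, Dsg3 and Dsg2 on the plus strand. All are annotated as protein-coding. Dsg1a, Dsg1b and Dsg1c are related mouse copies of the gene that is present once in human. Of all 51-base windows of their annotated transcripts, 34.7% for Dsg1a, 48.5% for Dsg1b and 29.2% for Dsg1c also occur in another gene, so the division of reads among the copies rests on the authors' quantification and their sum is given beside them. Dsc1, Dsc2, Dsc3 and Dsg4 share no such window with another gene, Dsg3 shares 0.116% and Dsg2 shares 3.5%. An antisense gene, Gm16090, overlaps Dsg2, and no source used here states whether counting used strand.

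In the double mutant the Dsg1 copies and Dsc1, typical of cells that have left the basal layer, were far above WT, while the cadherins of basal cells moved less. Dsg1a, Dsg1b, Dsg1c and Dsc1 rose by 3.47-fold to 4.94-fold, Dsc3 rose by 1.45-fold, Dsg2 fell by a small amount, and Dsg3 and Dsc2 did not pass the test. In all 6 of the 8 tested members passed in LEF1_TCF7dKO against WT, 5 higher and 1 lower, and 3 passed without either WT library (edgeR quasi-likelihood test, Benjamini-Hochberg adjusted p under 0.05 over all genes tested). Of all tested genes 37.6% passed in that comparison, 18% higher and 19.6% lower. Counted without a test, 6 of the 8 had both LEF1_TCF7dKO values above both WT values and 1 had both below, as did 43.4% and 30.7% of all tested genes. The median log2 fold change was 1.16 over the 8 tested members and 0.01 over all tested genes. In these bulk libraries a change in the share of cells of a type and a change in RNA per cell cannot be told apart.

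**Figure D1:**
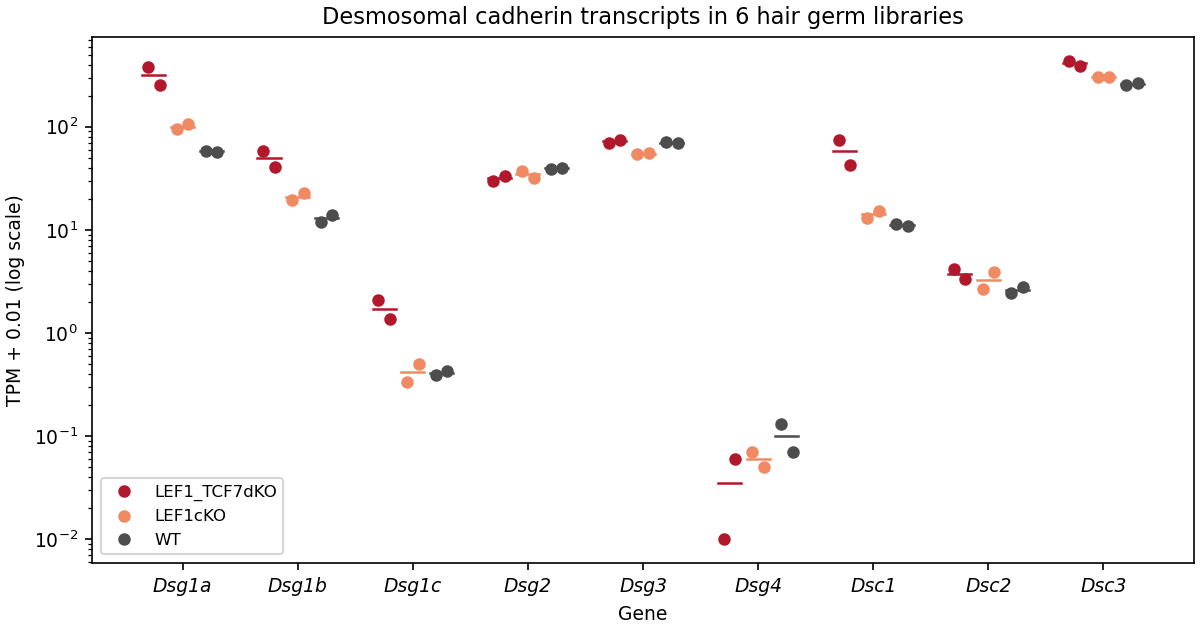
Level of each desmosomal cadherin in every library, as TPM + 0.01 on a log axis, for LEF1_TCF7dKO, LEF1cKO and WT; points are the 2 libraries of a group and bars their mean. Dsg1a, Dsg1b, Dsg1c and Dsc1 stand highest in both LEF1_TCF7dKO libraries. Dsg2 and Dsg3 differ less between groups than those genes, with Dsg2 lower in LEF1_TCF7dKO than in WT and Dsg3 lowest in LEF1cKO. Dsg4 lies near the floor in all 6 libraries.

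Dsg1a, the most abundant of the Dsg1 copies, had 377 and 254 TPM in the LEF1_TCF7dKO libraries, 95.3 and 106 TPM in the LEF1cKO libraries, and 58.4 and 57.2 TPM in the WT libraries. The 3 groups did not overlap: both double mutants were highest, both single mutants intermediate and both WT libraries lowest. Against WT the double mutant was higher by 2.30 ± 0.19 on the log2 scale (SE, 95% CI 1.84 to 2.77; edgeR adjusted p = 0.00245). The double mutant's 2 libraries differed more from each other than those of the other groups, yet the lower one was still more than 4 times either WT library.

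Dsg1b had 58.7 and 41.0 TPM in LEF1_TCF7dKO, 19.3 and 22.5 TPM in LEF1cKO, and 12.0 and 14.0 TPM in WT. Its order of groups was that of Dsg1a, again without overlap, and its log2 fold change in the double mutant against WT was 1.80 ± 0.18 (edgeR adjusted p = 0.0034). Dsg1c was scarce, with 2.07 and 1.34 TPM in LEF1_TCF7dKO, 0.32 and 0.49 TPM in LEF1cKO, and 0.38 and 0.42 TPM in WT. Here only the double mutant stood apart, and the single mutant's values lay on either side of the WT values. Dsg1c rose by 1.95 ± 0.34 on the log2 scale in the double mutant against WT (edgeR adjusted p = 0.00878), a call lost when either WT library was left out (adjusted p 0.06 and 0.0601).

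The 3 copies summed to 437 and 296 TPM in LEF1_TCF7dKO, 115 and 129 TPM in LEF1cKO, and 70.7 and 71.6 TPM in WT. Entered as 1 row of counts, the sum rose by 2.24 ± 0.19 on the log2 scale in the double mutant against WT (edgeR adjusted p = 0.00258), so the rise was also found with the copies pooled. The mix of copies shifted somewhat: Dsg1a exceeded Dsg1b by a ratio of 6.42 and 6.19 in LEF1_TCF7dKO, 4.93 and 4.69 in LEF1cKO, and 4.87 and 4.10 in WT. With 2 libraries a group the exact two-sided permutation test cannot go below 0.333, the value reached by the double mutant against WT.

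Dsc1, the desmocollin of upper epidermal layers, had 75.1 and 42.3 TPM in LEF1_TCF7dKO, 13.0 and 15.1 TPM in LEF1cKO, and 11.3 and 10.8 TPM in WT. Both double mutant libraries were far above the other 4, and the single mutants lay just above WT. The log2 fold change in the double mutant against WT was 2.27 ± 0.25 (95% CI 1.65 to 2.88; edgeR adjusted p = 0.00371). Dsg1a, Dsg1b and Dsc1 kept their call whichever of the 6 libraries was left out.

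Dsg3, the desmoglein of basal and outer follicle cells, had 69.5 and 75.0 TPM in LEF1_TCF7dKO, 54.0 and 56.0 TPM in LEF1cKO, and 71.3 and 68.9 TPM in WT. The double mutant and WT libraries overlapped, and both LEF1cKO libraries lay below all the others. In the double mutant against WT its log2 fold change was -0.09 ± 0.10 (95% CI -0.33 to 0.15; edgeR adjusted p = 0.488), an interval that holds no rise beyond 0.15 on the log2 scale. The sign turned to 0.04 with a filter of 10 CPM and with limma on log2 TPM, and stayed below 0 under the other scalings.

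Dsg2, which outside stratified epithelium is found in most tissues that have desmosomes, had 29.8 and 33.2 TPM in LEF1_TCF7dKO, 36.9 and 32.0 TPM in LEF1cKO, and 39.1 and 39.8 TPM in WT. Both double mutant libraries were below both WT libraries, and the single mutant overlapped the double mutant. It fell by 0.44 on the log2 scale in the double mutant against WT (SE 0.13; edgeR adjusted p = 0.0425). This is the weakest of the 6 calls: it was lost without either double mutant library (adjusted p 0.206 and 0.0587), without either WT library (0.184 and 0.204), and under 5 other settings.

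Dsg4 was close to absent, with 0 and 4 counts in LEF1_TCF7dKO, 6 and 5 counts in LEF1cKO, and 14 and 8 counts in WT. These counts are not scaled for depth, and in TPM, at 0 and 0.05 in LEF1_TCF7dKO, 0.06 and 0.04 in LEF1cKO, and 0.12 and 0.06 in WT, LEF1cKO overlapped WT. At this depth no difference was tested. The count of 0 allows up to 3 counts, or 0.0741 CPM (counts scaled to library size), in that library.

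Dsc3, the main desmocollin of basal keratinocytes, was the most abundant desmosomal cadherin in every library, with 438 and 392 TPM in LEF1_TCF7dKO, 301 and 301 TPM in LEF1cKO, and 255 and 266 TPM in WT. The groups did not overlap, in the same order as for Dsg1a. The rise of 0.53 ± 0.13 on the log2 scale in the double mutant against WT (edgeR adjusted p = 0.0222) was small beside those of Dsg1a and Dsc1. It was lost without WT replicate 1 (adjusted p = 0.158), WT replicate 2 (0.131) or LEF1_TCF7dKO replicate 1 (0.0833).

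Dsc2, the widely expressed desmocollin, had 4.16 and 3.30 TPM in LEF1_TCF7dKO, 2.64 and 3.85 TPM in LEF1cKO, and 2.43 and 2.79 TPM in WT. LEF1cKO overlapped both other groups. The log2 fold change in the double mutant against WT was 0.37 ± 0.23 (95% CI -0.18 to 0.92; edgeR adjusted p = 0.243), which leaves room for a rise of the size seen for Dsc3.

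Along the chromosome the 4 members that rose by more than 3-fold, Dsc1, Dsg1c, Dsg1a and Dsg1b, are consecutive, at places 3 to 6 of the 9, with Dsc3 and Dsc2 on one side and Dsg4, Dsg3 and Dsg2 on the other. This arrangement was noticed after the values were seen and was not tested.

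**Figure D2:**
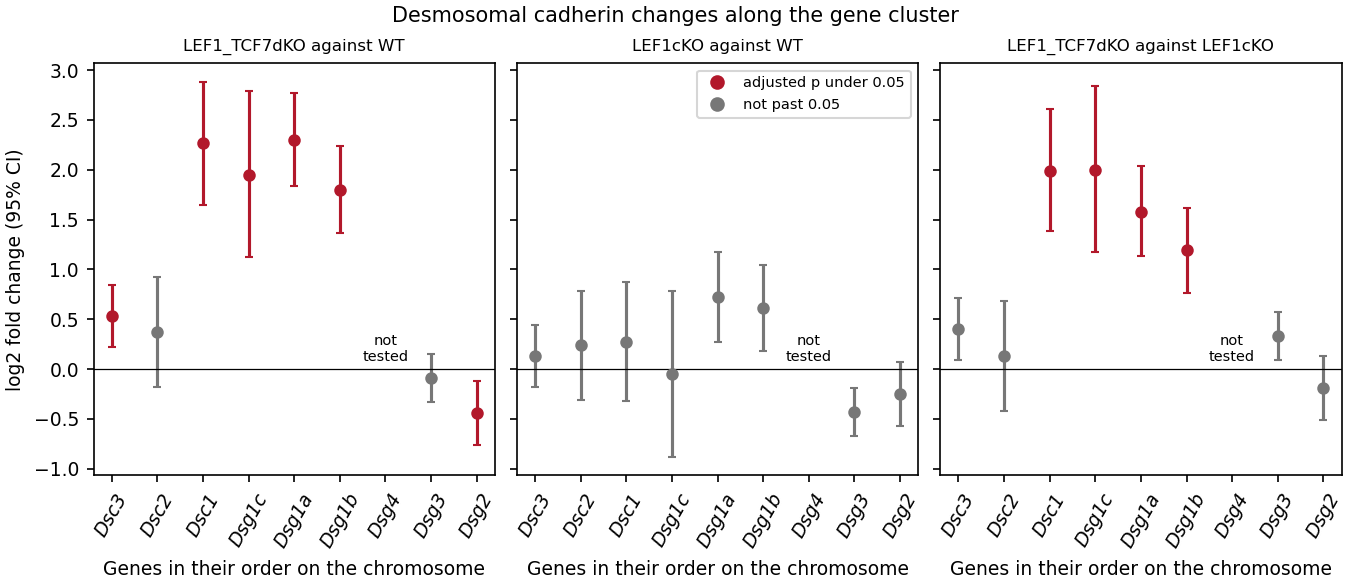
log2 fold change (points) with 95% confidence interval (bars) of each desmosomal cadherin, in chromosome order, for LEF1_TCF7dKO against WT, LEF1cKO against WT and LEF1_TCF7dKO against LEF1cKO; red marks an edgeR adjusted p under 0.05. The 4 neighbouring genes Dsc1, Dsg1c, Dsg1a and Dsg1b are red and between 1.19 and 2.30 in both comparisons of the double mutant, and no gene is red in LEF1cKO against WT.

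The make-up of the cadherins therefore differed between the genotypes, as their TPM shares show. The Dsg1 copies made up 81.5% and 73.2% of all desmoglein TPM in LEF1_TCF7dKO, 55.8% and 59.4% in LEF1cKO, and 39.0% and 39.7% in WT. Dsg3 made up 12.9% and 18.6% in LEF1_TCF7dKO, 26.2% and 25.8% in LEF1cKO, and 39.3% and 38.2% in WT, although its own level in LEF1_TCF7dKO overlapped that in WT. Dsg1 and Dsg3 transcripts were thus about equal in WT, with Dsg1 the larger in both mutants.

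As a ratio, Dsg1 over Dsg3 was 6.30 and 3.94 in LEF1_TCF7dKO, 2.13 and 2.30 in LEF1cKO, and 0.993 and 1.04 in WT. The 3 groups did not overlap, and each pair of groups gave p = 0.333 in the exact two-sided permutation test, the smallest value possible. Among desmocollins Dsc3 stayed dominant, at 84.7% and 89.6% of desmocollin TPM in LEF1_TCF7dKO, 95% and 94.1% in LEF1cKO, and 94.9% and 95.2% in WT.

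The share of Dsc1 was 14.5% and 9.66% in LEF1_TCF7dKO, 4.12% and 4.72% in LEF1cKO, and 4.21% and 3.85% in WT. The single mutant thus overlapped WT in its desmocollin mix but not in its desmoglein mix. Whether that is a difference between the families was not tested.

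**Figure D3:**
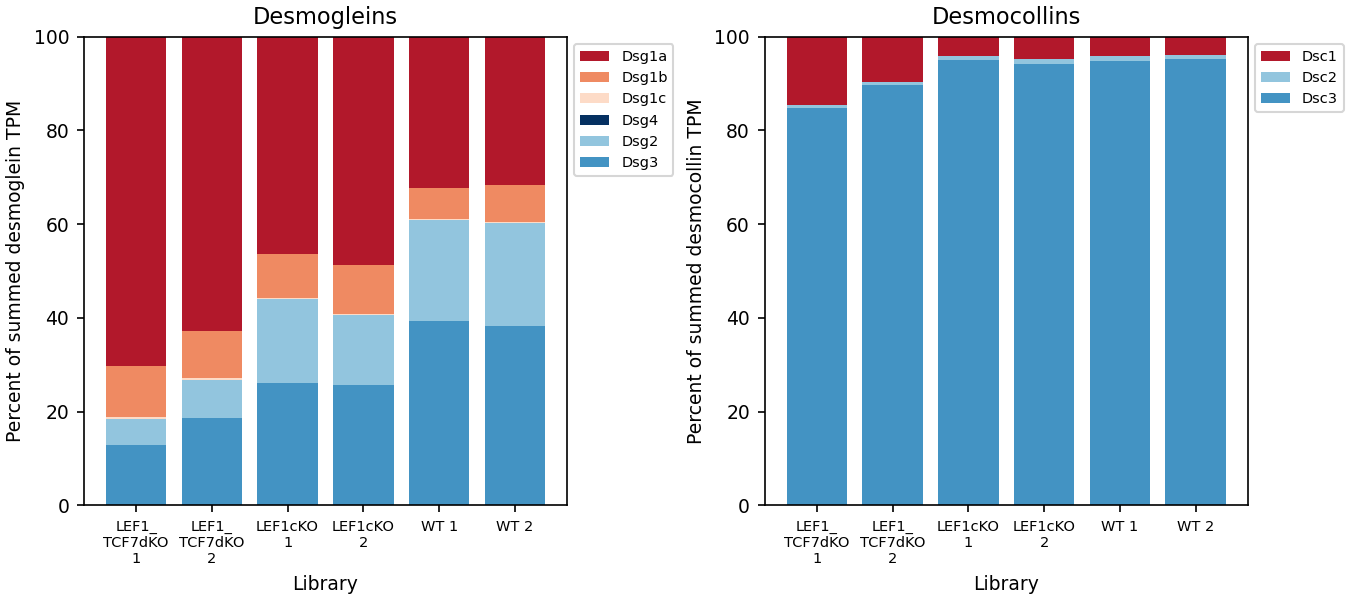
Percent of summed desmoglein TPM (left) and desmocollin TPM (right) held by each gene, 1 stacked bar per library, for LEF1_TCF7dKO, LEF1cKO and WT. Dsg1a grows to 70.2% and 62.7% of desmogleins in LEF1_TCF7dKO, 46.3% and 48.8% in LEF1cKO, against 32.2% and 31.7% in WT, while Dsc3 holds at least 84.7% of desmocollins in every library.

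Summed over all 9 genes, desmosomal cadherin transcripts reached 1054 and 842 TPM in LEF1_TCF7dKO, 522 and 536 TPM in LEF1cKO, and 450 and 460 TPM in WT. In WT the order of mean levels was Dsc3, Dsg3, Dsg1a, Dsg2, Dsg1b, Dsc1, Dsc2, Dsg1c and Dsg4, and every neighbouring pair was separated by more than the sum of the pair's SDs. In LEF1cKO Dsg1a had moved above Dsg3, and the order was otherwise that of WT. In LEF1_TCF7dKO Dsg1a came next to Dsc3 with a gap smaller than the SDs, Dsc1 was in place 3 or 4 rather than 6, and Dsc1 could not be set apart from Dsg3 or Dsg1b, whose values it overlapped.

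**Figure D4:**
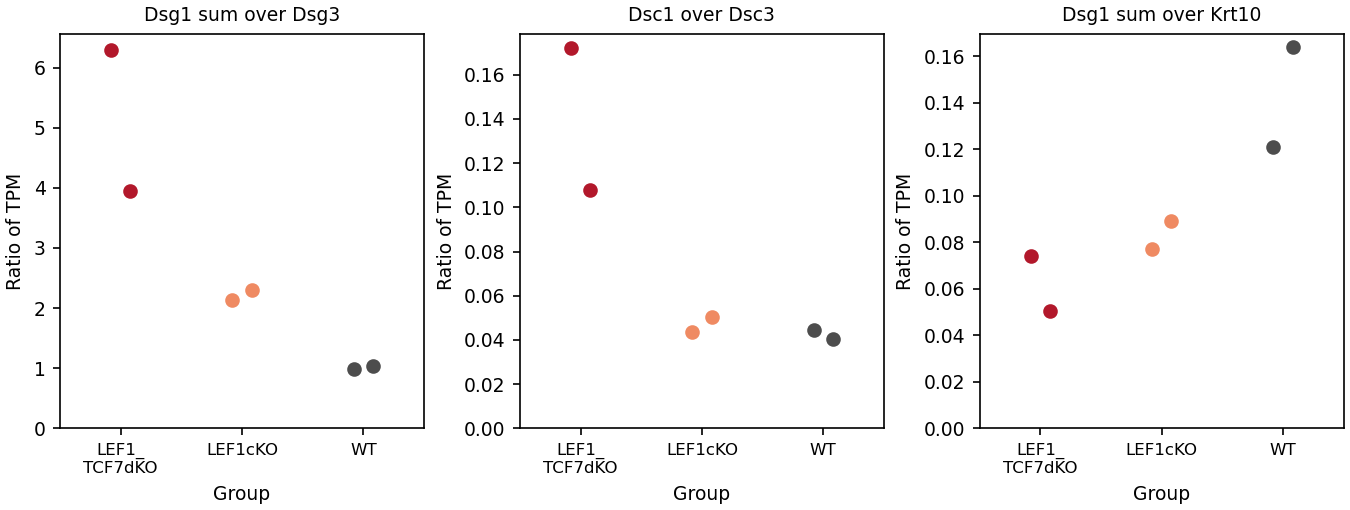
Ratio of TPM of the summed Dsg1 copies over Dsg3, of Dsc1 over Dsc3, and of the Dsg1 sum over Krt10, with 1 point per library, for LEF1_TCF7dKO, LEF1cKO and WT. Dsg1 over Dsg3 is at least 3.94 in LEF1_TCF7dKO, at least 2.13 in LEF1cKO and about 1 in WT, whereas the Dsg1 sum over Krt10 is lowest in LEF1_TCF7dKO.

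In LEF1cKO the fold changes of the Dsg1 copies and Dsc1 against WT were smaller than those of the double mutant against WT. Transcripts of Lef1 were still counted in both mutants, and any part of that in these differences was not tested. None of the 8 tested members passed in LEF1cKO against WT by edgeR, where 0.601% of all tested genes passed, 0.224% higher and 0.377% lower. At an unadjusted p under 0.05 there were 3, Dsg1a, Dsg1b and Dsg3, where 9.58% of all tested genes were. DESeq2, which called 613 genes in all, called 2 of the 3, Dsg1a as higher (adjusted p = 0.0108) and Dsg3 as lower (adjusted p = 0.0336). The other tools run, limma voom and limma on log2 TPM, called 0. The median log2 fold change over the tested members was 0.18, and 0.01 over all genes.

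Dsg1a had a log2 fold change of 0.72 ± 0.18 in LEF1cKO against WT (95% CI 0.27 to 1.17; edgeR adjusted p = 0.257), and Dsg1b one of 0.61 ± 0.18 (adjusted p = 0.322). For both, each of the 2 LEF1cKO libraries was above each WT library. Dsg3 had a log2 fold change of -0.43 ± 0.10 (95% CI -0.67 to -0.19; adjusted p = 0.203), with both LEF1cKO libraries below both WT libraries.

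Counting libraries without overlap, 4 tested members had both LEF1cKO values above WT (Dsg1a, Dsg1b, Dsc1 and Dsc3) and 2 had both below (Dsg2 and Dsg3). The same held, above and below, for 28.3% and 13.4% of all tested genes. Dsc1, the strongest riser of the double mutant beside Dsg1a, reached only 0.27 ± 0.24 on the log2 scale here (95% CI -0.32 to 0.87), and Dsg1c -0.05 ± 0.34 (95% CI -0.88 to 0.78).

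Set directly against the single mutant, the double mutant again had higher Dsg1 copies and Dsc1. In LEF1_TCF7dKO against LEF1cKO 4 of the 8 tested members rose and none fell, where 25.2% of all tested genes passed, 11.2% higher and 14.1% lower. The log2 fold changes were 2.0 ± 0.34 for Dsg1c (edgeR adjusted p = 0.0156), 1.99 ± 0.25 for Dsc1 (0.0111), 1.58 ± 0.19 for Dsg1a (0.0108) and 1.19 ± 0.18 for Dsg1b (0.0125). For Dsc1 and Dsg1c this is close to the whole difference from WT, whereas the Dsg1a and Dsg1b intervals in LEF1cKO against WT lay above 0.

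Dsg3 had a log2 fold change of 0.33 ± 0.10 in LEF1_TCF7dKO against LEF1cKO (adjusted p = 0.0537), Dsc3 one of 0.40 ± 0.13 (0.0653), and Dsg2 one of -0.19 ± 0.13 (0.321). For 6 of the 8 tested members, Dsg3 and Dsc3 among them, both double mutant libraries were above both LEF1cKO libraries, and for none both below, where 35% and 29.4% of all tested genes were. For Dsg3 and Dsc3 other settings brought each past the threshold. All 4 calls were lost without LEF1_TCF7dKO replicate 1 (adjusted p 0.0777 to 0.083), a setting in which 1 gene of all tested passed, and that of Dsg1c also without LEF1cKO replicate 1 (0.0625).

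Most transcripts of the proteins that couple these cadherins to keratin were also higher in the double mutant. Of 10 plaque and partner genes, 8 rose in LEF1_TCF7dKO against WT and 0 fell, with a median log2 fold change of 1.33. Of all tested genes 18% rose and 19.6% fell in that comparison. Plakoglobin (Jup), which binds cadherin tails, had 708 and 642 TPM in LEF1_TCF7dKO, 293 and 347 TPM in LEF1cKO, and 229 and 237 TPM in WT, a log2 fold change of 1.39 in the double mutant against WT (edgeR adjusted p = 0.00271). Desmoplakin (Dsp), the keratin linker, had 864 and 640 TPM in LEF1_TCF7dKO, 316 and 368 TPM in LEF1cKO, and 280 and 284 TPM in WT, a log2 fold change of 1.27 (0.00599).

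Among the plakophilins, which cluster cadherins, the members differed. Pkp1, the plakophilin of suprabasal epidermis, rose by 1.68 on the log2 scale in the double mutant against WT and Pkp3 by 0.71. Pkp2 was scarce, with 2.13 and 0.73 TPM in LEF1_TCF7dKO, 1.39 and 1.63 TPM in LEF1cKO, and 2.08 and 1.92 TPM in WT, and its log2 fold change of -0.62 ± 0.47 did not pass. Pkp4, a relative found also at other junctions, was at 51.1 to 56.5 TPM in all libraries.

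The largest rises among the partners were those of transcripts for cornified layer proteins. Corneodesmosin (Cdsn), which is secreted to the desmosomes of dying epidermal cells, had 32.5 and 30.5 TPM in LEF1_TCF7dKO, 13.1 and 6.27 TPM in LEF1cKO, and 3.41 and 1.91 TPM in WT. Periplakin (Ppl), a linker of the cornified envelope, rose by 2.48 on the log2 scale in the double mutant against WT (edgeR adjusted p = 0.000874), envoplakin (Evpl), its partner, by 1.92, and Perp, a membrane protein of desmosomes, by 0.74.

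In LEF1cKO against WT Ppl alone of the 10 passed, with a log2 fold change of 0.95 (edgeR adjusted p = 0.0351), and its call held without LEF1cKO replicate 1 but was lost without any of the other 5 libraries. In LEF1_TCF7dKO against LEF1cKO the 8 genes rose again, where 11.2% of all tested genes did. The median log2 fold change over the 10 was 1.05. In no leave-out did all 8 calls hold, and none of them held without LEF1_TCF7dKO replicate 1. In LEF1_TCF7dKO against WT Pkp3 and Perp lost their call without either WT library, and between 6 and 8 of the 10 rose over the 6 leave-outs.

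**Figure D5:**
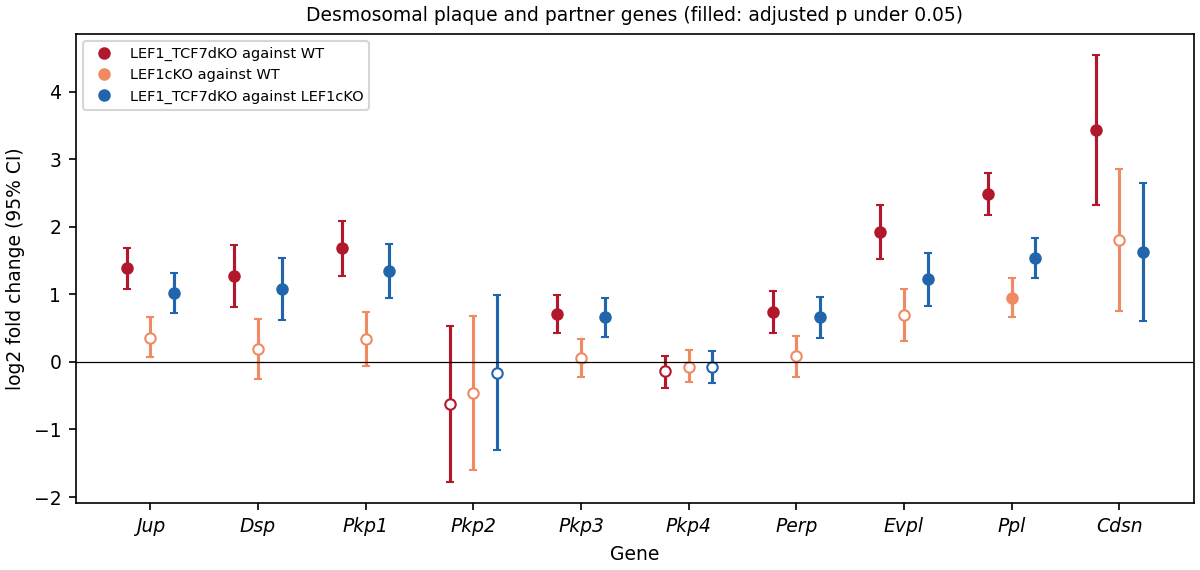
log2 fold change (points) with 95% confidence interval (bars) of 10 genes of the desmosomal plaque and its partners, for LEF1_TCF7dKO against WT, LEF1cKO against WT and LEF1_TCF7dKO against LEF1cKO; filled points have an edgeR adjusted p under 0.05. In both comparisons of the double mutant 8 genes are filled and above 0, Pkp2 and Pkp4 are open, and Ppl is the filled point of LEF1cKO.

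Of the classical cadherins, which form the adherens junctions, E-cadherin (Cdh1) had 240 and 232 TPM in LEF1_TCF7dKO, 132 and 182 TPM in LEF1cKO, and 126 and 127 TPM in WT, a log2 fold change of 0.76 in the double mutant against WT (edgeR adjusted p = 0.0111). P-cadherin (Cdh3), a hair germ marker and one of the sorting antigens, had 65.9 and 85.9 TPM in LEF1_TCF7dKO, 134 and 116 TPM in LEF1cKO, and 134 and 130 TPM in WT, a log2 fold change of -0.93 (0.0109). Of the 5 classical cadherins and catenins 1 rose and 2 fell in the double mutant against WT, the other fall being Ctnnb1. Of all tested genes 18% rose and 19.6% fell. Each of the calls in this list was lost in at least 3 of 6 leave-outs.

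Among 11 proteases and inhibitors that act on desmosomal cadherins outside the cell, 10 were tested. In the double mutant against WT 2 rose and 1 fell, where 18% of all tested genes rose and 19.6% fell. The count of rises is close to that share, and the list as a whole was not tested. Klk5, a kallikrein of skin shedding, had 31.5 and 22.9 TPM in LEF1_TCF7dKO, 11.4 and 9.16 TPM in LEF1cKO, and 7.23 and 5.28 TPM in WT. Spink5, the inhibitor of that protease, had 34.9 and 22.2 TPM in LEF1_TCF7dKO, 9.50 and 5.85 TPM in LEF1cKO, and 4.60 and 2.09 TPM in WT. Both kept their call over all 6 leave-outs, with log2 fold changes of 1.98 and 2.95, and Adam10 fell by 0.40, a call lost in 3 of 6 leave-outs.

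Of 15 transcription factors reported to act on desmosomal cadherin genes, 13 were tested. In the double mutant against WT 5 rose and 4 fell, where 18% of all tested genes rose and 19.6% fell. The 4 that fell were Lef1, Tcf7, Tcf7l1 and Tcf7l2, with log2 fold changes of -1.27, -1.37, -1.81 and -0.75. Not all of these falls kept their call when single libraries were left out. That of Lef1 was lost in most leave-outs, with log2 fold changes of -1.32 to -1.21. The rises numbered 3 without WT replicate 1 or LEF1_TCF7dKO replicate 1. Grhl3 and Klf4, factors of epidermal barrier formation, rose by 2.22 and 1.21 on the log2 scale, and Foxn1, a factor of keratinocyte and hair differentiation, by 1.79. Grhl1, reported to act on Dsg1a in mouse, had 98.5 and 68.8 TPM in LEF1_TCF7dKO, 57.2 and 47.7 TPM in LEF1cKO, and 40.8 and 38.9 TPM in WT, a log2 fold change of 0.90 that was lost in 3 of 6 leave-outs. Hoxc13, a hair shaft factor, had 22.5 and 35.2 TPM in LEF1_TCF7dKO, 41.2 and 40.7 TPM in LEF1cKO, and 39.2 and 39.9 TPM in WT, a log2 fold change of -0.59 in the double mutant against WT that did not pass (adjusted p = 0.0775).

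Most suprabasal markers were, like the Dsg1 copies and Dsc1, higher in the double mutant. Of 11 such genes 9 rose in LEF1_TCF7dKO against WT, where 18% of all tested genes did. In LEF1_TCF7dKO against LEF1cKO 7 rose (11.2% of all tested genes), calls that did not hold without LEF1_TCF7dKO replicate 1. In LEF1cKO against WT Krt2, Krt77 and Krt78 rose (0.224% of all tested genes), while no Dsg1 copy and not Dsc1 passed. Krt2 was scarce in WT, at 0.21 and 0.2 TPM, and the 3 calls did not hold together in any leave-out. Krtdap (-0.09) and Calml3 (-0.43) had log2 fold changes below 0 in LEF1cKO against WT, and Krt2 (-1.5) in LEF1_TCF7dKO against LEF1cKO, none of which passed. The summed level of the 11 suprabasal genes was 13699 and 13023 TPM in LEF1_TCF7dKO, 3340 and 3467 TPM in LEF1cKO, and 1715 and 1402 TPM in WT. None of them was at 0 in any library. Krt10, the keratin of suprabasal epidermis, had 5916 and 5887 TPM in LEF1_TCF7dKO, 1493 and 1440 TPM in LEF1cKO, and 587 and 437 TPM in WT.

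Krt10 was thus further above WT than the Dsg1 copies were. The Dsg1 sum over Krt10 was 0.0739 and 0.0503 in LEF1_TCF7dKO, 0.0770 and 0.0893 in LEF1cKO, and 0.121 and 0.164 in WT, without overlap between the groups (exact two-sided permutation p = 0.333, the smallest possible). Of 7 basal keratinocyte genes 5 also rose in the double mutant against WT, where 18% of all tested genes did. Fewer of them rose when a WT or a double mutant library was left out. Of 13 tested genes of the hair shaft and inner root sheath 9 fell and 0 rose, where 19.6% of all tested genes fell. The summed level of the list was 97.1 and 94.8 TPM in LEF1_TCF7dKO, 340 and 148 TPM in LEF1cKO, and 379 and 351 TPM in WT. Most of the sum in the double mutant was Gata3, which did not pass, and without it the sum was 10.3 and 11.9 TPM in LEF1_TCF7dKO, 196 and 61.8 TPM in LEF1cKO, and 251 and 204 TPM in WT. Krt81 was at 0 in all 4 mutant libraries and at 0.28 and 0.51 TPM in WT, and Krt33b and Krt34 were at or near 0 in every library.

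Most markers of leukocytes, fibroblasts, and endothelium and mural cells, which lie outside the epithelium, were also higher in the double mutant libraries. Of all tested genes 18% rose in LEF1_TCF7dKO against WT. Of 8 leukocyte genes 6 rose against WT, with summed levels of 839 and 795 TPM in LEF1_TCF7dKO, 171 and 300 TPM in LEF1cKO, and 112 and 44.6 TPM in WT. All 6 fibroblast genes rose (2 without LEF1_TCF7dKO replicate 1), with 1865 and 1557 TPM in LEF1_TCF7dKO, 385 and 868 TPM in LEF1cKO, and 303 and 142 TPM in WT. All 5 genes of endothelium and mural cells rose (1 without LEF1_TCF7dKO replicate 1 or either WT library, 3 without either LEF1cKO library), with 182 and 65.7 TPM in LEF1_TCF7dKO, 12.5 and 15.1 TPM in LEF1cKO, and 23.8 and 11.9 TPM in WT.

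None of these 3 lists has a gene at 0 in any library. In LEF1_TCF7dKO against WT, where 18% of all tested genes rose and 19.6% fell, 1 of 8 sebaceous gland genes rose. All 8 had log2 fold changes above 0 (median 1.57), and more of them passed without either LEF1cKO library. Their summed levels were 2190 and 839 TPM in LEF1_TCF7dKO, 254 and 770 TPM in LEF1cKO, and 389 and 341 TPM in WT. Over upper follicle and isthmus genes 2 of 7 rose, over companion layer genes 2 of 5 fell, and over hair germ and bulge genes 2 of 11 rose and 7 fell. These 4 counts moved by more than 1.5 times when single libraries were left out: none of the sebaceous genes rose without either WT library or LEF1_TCF7dKO replicate 1, and the hair germ and bulge falls numbered 3 without WT replicate 2 and 4 without WT replicate 1 or LEF1_TCF7dKO replicate 1. The 5 melanocyte genes had log2 fold changes of -0.82 to -0.22, and none reached even an unadjusted p under 0.05 by edgeR. The part of suprabasal and other cells in the cadherin differences was not tested.

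By Pearson r of log2(TPM + 1) over the 6 libraries, among 10916 genes, the genes most like each member gave r of at least 0.954. For Dsg1a these were Sidt2 and Sept5, for Dsg1b Klf2 and Spopl, for Dsg1c Adcy9 and Egfl8, for Dsc1 Dstn and Cyth1, for Dsc2 Tnrc6b and Fam20b, and for Dsc3 Ceacam19 and Nsf. The likeness is common for the members that rose, since 1035 genes had an r of 0.95 or more with Dsg1a and 900 with Dsc1. It was rare for the others: 27 such genes were found for Dsg2, led by Porcn (r = 0.987), and 3 for Dsg3, led by Vps8 (r = 0.956). With 6 libraries in 3 groups these values mostly repeat the order of the group levels.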

How the data were processed

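RNA was sequenced from 6 libraries in 3 groups. Reads were processed by the authors with Bowtie2 2.2.9, RSEM 1.2.30 and the mm10 build, per the submitters' processing notes. The deposited files give expected counts, TPM and FPKM per gene with transcript lengths, per the file headers, and FPKM was not used. Expected counts were rounded to whole numbers and fitted with edgeR 4.0.16 (R 4.3.3) by its quasi-likelihood test, with TMM scaling and filterByExpr, on all 6 libraries with group as the only term. Benjamini-Hochberg adjustment ran over 19640 genes with a threshold of 0.05. The test was also run on simulated counts that gave every gene the same spread. That run cannot show its error rate where genes differ in spread. Standard errors are the log2 fold change over the square root of F. The biological coefficient of variation was 0.232. The 92 spike-in rows held 0 counts. Intervals and floors cover counting error or the spread between libraries only. Members and lists were chosen with earlier results of these data known. Named genes are all members, all plaque and partner genes, and up to 2 most alike genes per member. Of the other lists only some of the genes with the smallest p are named. Tcf7 and Gata3 are named outside that rule. Grhl1, Hoxc13, Krt5, Krt14 and 3 hair keratins were added after their values were seen. Alternatives used DESeq2 1.42.0, limma 3.58.1, other scalings and filters, a replicate block and each library left out. Replicate numbers did not pair the libraries. No sequence is shown.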

Additional observations from a re-analysis of the deposited data

How the results depend on the processing

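With 2 libraries a group and 3 residual degrees of freedom, small changes rest on single libraries, and where 1 was left out the lone one is assumed to vary like the other groups. In LEF1cKO against WT, 118 genes and 0 cadherins changed as reported. There were 422 genes with no filter and 613 genes and 2 cadherins with DESeq2, and leaving out each library gave 78 to 138 genes and 0 cadherins. In LEF1_TCF7dKO against WT, leave-outs gave 1968 to 8333 genes and 3 to 6 cadherins. In LEF1_TCF7dKO against LEF1cKO, fitting only the groups compared gave 2585 genes against 4952, and leave-outs gave 1 to 5973 genes and 0 to 4 cadherins. The share of rises among calls in LEF1cKO against WT was 37.3%, and ranged from 19.3% (only the groups compared) to 58.9% (DESeq2).

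Dsg2 in LEF1_TCF7dKO against WT also lost its call with RLE scaling (adjusted p = 0.0526), at least 10 CPM (0.0699) and log2 TPM (0.0705 and 0.0714).

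The replicate block gave 80, 6435 and 3635 genes and 0, 4 and 4 cadherins in the same 3 comparisons. Dsg2 and Dsc3 lost their calls under it in LEF1_TCF7dKO against WT (adjusted p 0.0739 and 0.0511). Deviations of same-numbered libraries correlated at -0.0421, 0.0558 and -0.0276, so the numbers are not taken to pair them.

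Reversed signs were uncalled on both sides, and their cause was not tested. In LEF1cKO against WT, Dsg1c gave 0 (log2 TPM + 1), Pkp4 0.10 and Hoxc13 0.05 (log2 TPM), and over leave-outs Dsg1c ranged from -0.33 to 0.18, Pkp3 from -0.05 to 0.16 and Hoxc13 from -0.08 to 0.03. In LEF1_TCF7dKO against WT, Dsg3 gave 0.04 (10 CPM and log2 TPM) and -0.19 to 0 over leave-outs, and Pkp4 gave 0.05 (log2 TPM). In LEF1_TCF7dKO against LEF1cKO, leave-outs gave -0.06 to 0.35 for Dsc2, -1.07 to 0.39 for Pkp2 and -0.71 to 0.09 for Lef1, and 10 CPM gave 0.05 for Pkp4. At 10 CPM, Dsg1c and Pkp2 were not tested.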
